A study of Drosophila melanogaster with 9 samples.

Results

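Cytochrome P450 enzymes were followed across 9 Affymetrix Drosophila Genome 2.0 arrays as a gene family. Genes were chosen by their symbol alone, Cyp followed by a digit, from the probe sets that the platform annotation ties to 1 gene. The pattern matched 83 genes. Of these, *Cyp1* and *Cyp40* encode cyclophilins, which are protein-folding enzymes and no P450s, and they were left out, so that 81 P450 genes remained of 11982 genes measured. No measured value entered this choice by symbol, although the family was picked with earlier results of these data known.

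The 3 groups held 3 arrays each. Mock RNAi and Ph RNAi were BG3 cells, a male cell line that was derived from larval central nervous tissue, and wing discs came from late last-instar *yw* larvae of both sexes, with 12 to 15 discs per replicate. Ph RNAi cells received 10 µg of double-stranded RNA per well against sequence common to *ph-p* and *ph-d*, the genes of the Polycomb repressive complex 1 subunit Polyhomeotic, and were harvested after 5 days. No double-stranded RNA is named for Mock RNAi and no group received one without a target, so that effects of double-stranded RNA and of Ph loss cannot be told apart. *ph-p* and *ph-d* had no named probe set here, and their depletion was not checked. The study used the arrays to ask how mRNA levels change when Polyhomeotic is depleted and which genes are active in wing discs.

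P450s are haem-containing oxygenases. Most sit in the endoplasmic reticulum and take electrons from cytochrome P450 reductase and cytochrome b5, whereas those of the mitochondrial clan are served by ferredoxins. In insects, members of the CYP3 and CYP4 clans include many enzymes that act on plant toxins, insecticides, fatty acids and hydrocarbons, and a small set of CYP2 clan and mitochondrial enzymes makes and inactivates the moulting hormone 20-hydroxyecdysone. The 81 genes comprised 37 of the CYP3 clan, 32 of the CYP4 clan, 8 of the mitochondrial clan and 4 of the CYP2 clan. P450 genes of steroid synthesis that carry other symbols, 5 of them measured, are described as a list of their own.

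The values are log2 expression values made with GCRMA. On each array they formed a lower mode, in which weak signals are compressed into a narrow band, and an upper mode. The boundary between the modes, taken as the minimum of the density over all genes, lay at 3.92 for BG3 cells and at 2.94 for wing discs. A gene in the lower mode cannot be seen to fall, and its fold change on leaving that mode depends on the background correction. Wing disc arrays had lower medians than the BG3 arrays (0.824 to 0.838 against 2.2 to 2.23) and were taken as scaled apart. The tissues were therefore compared only by the percentile of a gene among the 11982 genes of its array.

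Arrays of 1 group correlated at 0.9904 or more over probe sets. Cell type markers stood as follows: of the 7 measured neuron markers only *elav* lay above the boundary in Mock RNAi, together with 5 of 11 glia markers and 4 of 10 hemocyte markers, and 5 of 6 wing disc markers lay above it in the discs. In the discs 4 fat body markers varied between replicates, with *Lsp2* at 8.71, 5.68 and 2.34. The 3′ minus 5′ signal of the actin control was 3.20 ± 0.12 in wing disc, 2.01 ± 0.26 in Mock RNAi and 1.82 ± 0.38 after Ph RNAi (log2, SD, n = 3 each).

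Most P450 transcripts were at the bottom of the scale in all 3 groups. Group means lay above the boundary for 12 of the 81 genes in Mock RNAi (14.8%), for 13 in Ph RNAi (16.0%) and for 9 in wing disc (11.1%), whereas 46.4%, 46.9% and 47.9% of all genes did so. Only 6 members exceeded the boundary in every group, 7 did so in BG3 cells alone and 3 in wing disc alone, and 65 exceeded it in none. These 65 had group means of 1.37 to 3.73 in Mock RNAi. Their means were 1.37 to 3.66 after Ph RNAi, and 0.24 to 2.33 in the discs. They include *Cyp6a2* and *Cyp6a8*, which are inducible by xenobiotics, *Cyp6g1*, known for insecticide resistance, *Cyp303a1*, needed for sensory bristles, and *Cyp4d21*, expressed in the male head. Because the samples are bulk RNA, a gene transcribed in few cells and a gene transcribed weakly in many cannot be told apart.

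**Figure D1:**
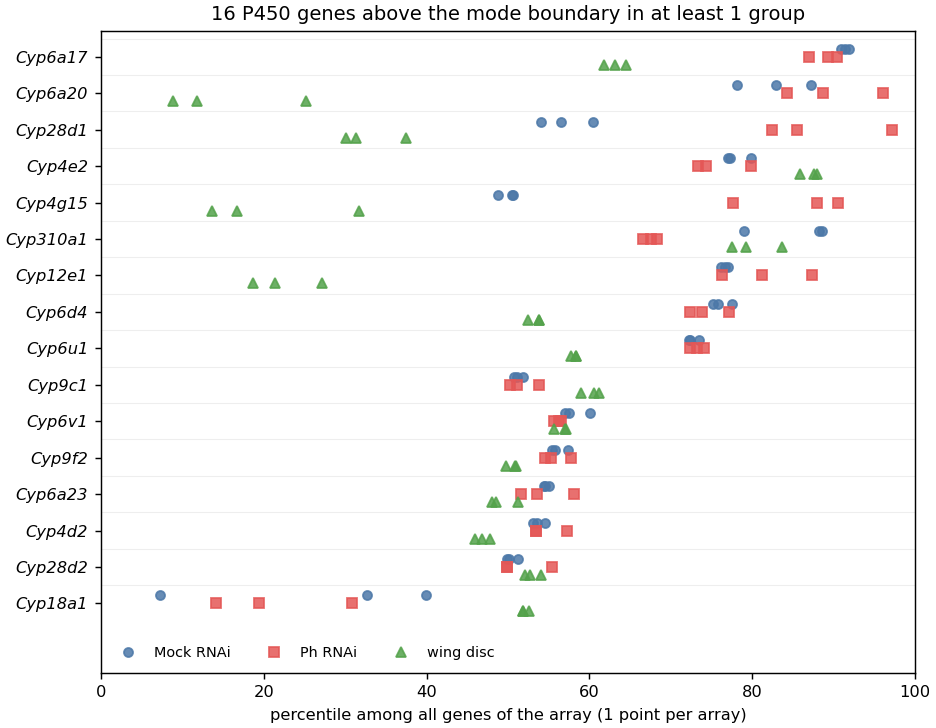
Percentile of each gene among the 11982 genes of its array, with 1 point per array, for the 16 P450 genes whose mean exceeded the mode boundary in at least 1 group. *Cyp6a20* and *Cyp12e1* were high in all 6 BG3 arrays and low in all 3 wing disc arrays, whereas *Cyp4e2* was high in all 9.

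By clan, 9 of the 37 CYP3 genes were above the boundary in Mock RNAi and 2 of the 32 CYP4 genes, with 1 of 8 mitochondrial and 0 of 4 CYP2 genes. Corresponding counts were 9, 3, 1 and 0 in Ph RNAi and 7, 1, 0 and 1 in wing disc. Thus the P450 transcripts that these cells and discs held were mostly those of the CYP3 clan, and their levels were spread over the upper mode.

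In Mock RNAi the highest member was *Cyp6a17*, a gene that in the fly brain affects temperature preference. Its values were 10.59, 10.48 and 10.45 in Mock RNAi, 10.15, 10.33 and 9.79 in Ph RNAi and 5.29, 5.63 and 5.47 in wing disc. The groups of BG3 arrays did not overlap, but the change of -0.42 ± 0.19 (log2, SE) did not pass the test (adjusted p = 0.304). *Cyp310a1* followed at a mean percentile of 85.3, then *Cyp6a20* at 82.8, *Cyp4e2* at 78.1 and *Cyp12e1* at 76.6. The SDs of *Cyp310a1* and *Cyp6a20* were larger than the gap between them, and the order of these neighbours is not resolved. In Ph RNAi *Cyp6a20*, *Cyp6a17*, *Cyp28d1*, *Cyp4g15* and *Cyp12e1* took the first places, with mean percentiles of 89.7, 88.9, 88.4, 85.4 and 81.7, and arrays of neighbours in this order overlapped. In wing disc *Cyp4e2* led at 87.2 ± 1.1, with *Cyp310a1* at 80.1 ± 3.2, *Cyp6a17* at 63.1 ± 1.4, *Cyp9c1* at 60.3 ± 1.1 and *Cyp6u1* at 58.1 ± 0.3 (percentile, SD, n = 3 each).

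Ph RNAi and Mock RNAi were compared to find which P450 transcripts moved on depletion of Polyhomeotic. *Cyp4g15* and *Cyp28d1* rose and *Cyp310a1* fell. In all, 2 of the 81 genes were called higher (2.47%), against a background of 3.2% of all genes, and 1 was called lower (1.23%), against 1.57%. Calls were made with limma at an adjusted p under 0.05, adjusted over all 11982 genes. The arrays of the groups did not overlap for 18 members (22.2%), and for 23.5% of all genes. The share of P450 genes that changed was therefore near that of the whole array in each direction.

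Over the 81 genes the median change was -0.01 on the log2 scale, beside -0.03 for all genes, with 40 changes above 0 and 41 below. Changes of 77 members lay within 1 log2 unit of 0. Centring each array on its median over genes moved the median of all genes to -0.21, and under that scaling 2 members were called higher and 4 lower (339 and 507 of all genes, in place of 384 and 188). *Cyp4g15*, *Cyp28d1* and *Cyp310a1* were called, in the same direction, under each of the 14 alternatives tried.

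**Figure D2:**
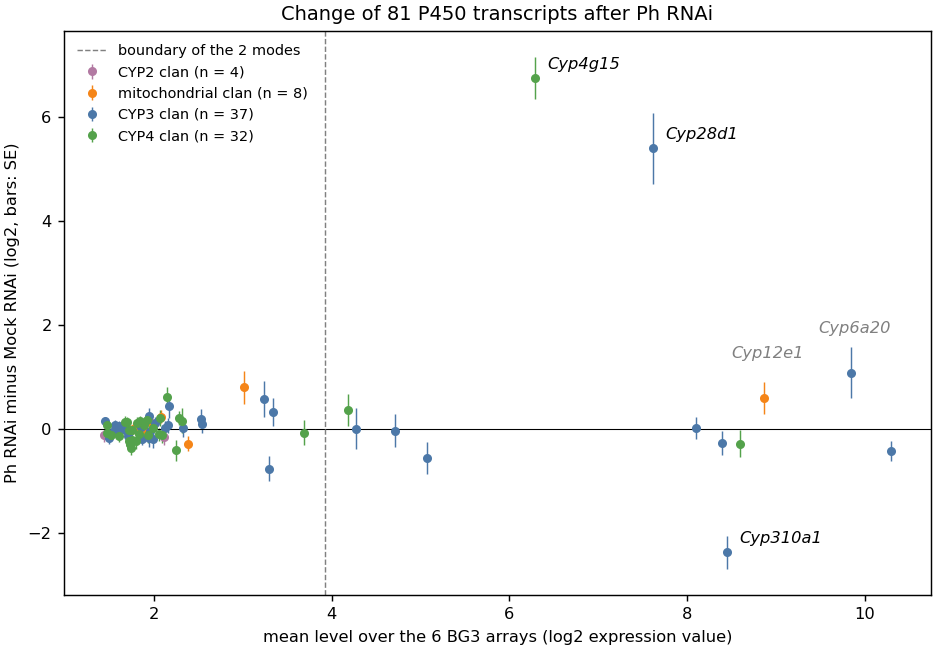
Change after Ph RNAi (log2, bars show SE) against the mean level over the 6 BG3 arrays for the 81 P450 genes, coloured by clan. *Cyp4g15*, *Cyp28d1* and *Cyp310a1* stand away from 0, and most other genes lie to the left of the boundary of the modes with changes close to 0.

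*Cyp4g15* encodes a CYP4G enzyme expressed in the nervous system, cortex glia included, and is the relative of *Cyp4g1*, whose product makes cuticular hydrocarbons in oenocytes. Its values were 2.63, 3.09 and 3.02 in Mock RNAi, 9.95, 10.36 and 8.69 in Ph RNAi and 0.50, 0.47 and 0.67 in wing disc. All 3 Ph RNAi arrays thus exceeded all 3 Mock RNAi arrays by a wide margin, and the gene was at the bottom of the scale in discs. The change was 6.75 ± 0.40 (log2, SE; 108-fold; adjusted p = 3.38e-06, limma), and it started from the lower mode. *Cyp4g15* was the only member that lay above the boundary in Ph RNAi and not in Mock RNAi.

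*Cyp4g1* lay in the lower mode in every group, with 1.96 ± 0.23 for Mock RNAi, 2.17 ± 0.14 for Ph RNAi and 0.87 ± 0.09 for wing disc (log2, SD, n = 3 each). Its change of 0.21 ± 0.15 (SE) did not pass the test (adjusted p = 0.534). Neither of the CYP4G transcripts was therefore found in wing disc above the lower mode.

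Markers of glia and of other cell types moved along with *Cyp4g15*. Of the 13 glia markers, 11 were measured, and 4 of these were called higher in Ph RNAi (*repo*, *nrv2*, *loco* and *Gli*) and 0 lower, beside 3.2% and 1.57% of all genes. *Gli* was close to the threshold (adjusted p = 0.0491, limma). The cortex glia gene *wrapper* changed the other way without passing the test (-0.89 ± 0.29, SE; adjusted p = 0.126), with Ph RNAi arrays all below those of Mock RNAi, and *moody*, of the surface glia, differed by -0.09 ± 0.33 (adjusted p = 0.932). *repo*, the homeodomain factor of lateral glia, stood at 3.08, 2.60 and 3.69 in Mock RNAi and at 10.25, 10.24 and 10.19 in Ph RNAi. Summed over the measured markers, the log2 level ran from 11.97 to 12.43 for Mock RNAi arrays and from 13.51 to 13.72 for Ph RNAi arrays. The sum is of linear values and rests mostly on the highest genes, *nrv2* first (means of 11.1 and 12.69), so it does not describe the list evenly. In wing disc *repo* was at a mean percentile of 20.4 (50.5 in Mock RNAi), *nrv2* at 93.1 (93.9) and *Gli* at 97.8 (68.4). Of the same list, *gcm*, *gcm2* and *Gat* stayed in the lower mode in all 3 groups. Markers outside the glia list that were called higher were *He* of hemocytes (3.19), *peb* of the gut list (4.58), *nub* and *zfh2* of the wing disc list (3.09 and 2.25) and *vvl* of the tracheal list (1.26), all as log2 changes. *vkg* of the hemocyte list was called lower (-0.98), close to the threshold (adjusted p = 0.0477, limma). *PPO1*, of crystal cells, gave 2.73, 4.44 and 9.53 in Ph RNAi (3.49 ± 1.27, SE; adjusted p = 0.184). The part of these cells or transcripts in the change of *Cyp4g15* was not tested.

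*Cyp28d1*, a gene induced by plant toxins such as nicotine, had values of 4.01, 5.94 and 4.82 in Mock RNAi, 9.62, 12.08 and 9.24 in Ph RNAi and 0.67, 0.66 and 0.78 in wing disc. The lowest Ph RNAi array was well above the highest Mock RNAi array, although the arrays of each group spread widely. The change was 5.39 ± 0.68 (log2, SE; 42.0-fold; adjusted p = 0.000862, limma). Replicate 2 was the highest array in both groups, and without Ph RNAi replicate 2 the change was 4.51.

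Its neighbour on 2L, *Cyp28d2*, did not pass the test. That gene measured 3.01, 2.95 and 2.91 in Mock RNAi, 3.05, 4.50 and 3.05 in Ph RNAi and 3.23, 2.96 and 3.60 in wing disc. All Ph RNAi values exceeded all Mock RNAi values, those of replicates 1 and 3 by little. Ph RNAi replicate 2, the array on which *Cyp28d1* was highest, stood well above the others (change 0.58 ± 0.35, SE; adjusted p = 0.457). In wing disc *Cyp28d2* was just above the boundary (mean percentile 53.0, against 50.4 in Mock RNAi) and *Cyp28d1* was in the lower mode. These levels come from different probe sets and are not comparable between the genes.

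*Cyp310a1*, of the CYP3 clan, was the only P450 gene called lower. It measured 8.84, 10.04 and 10.03 in Mock RNAi, 7.44, 7.05 and 7.30 in Ph RNAi and 7.64, 7.12 and 6.98 in wing disc. Every Ph RNAi array was below every Mock RNAi array, and the gene stayed in the upper mode in all 9 arrays. The change was -2.37 ± 0.32 (log2, SE; 5.18-fold lower; adjusted p = 0.00144, limma). Its percentile in wing disc, 80.1 ± 3.2, overlapped that in Mock RNAi, 85.3 ± 5.5 (SD, n = 3 each).

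**Figure D3:**
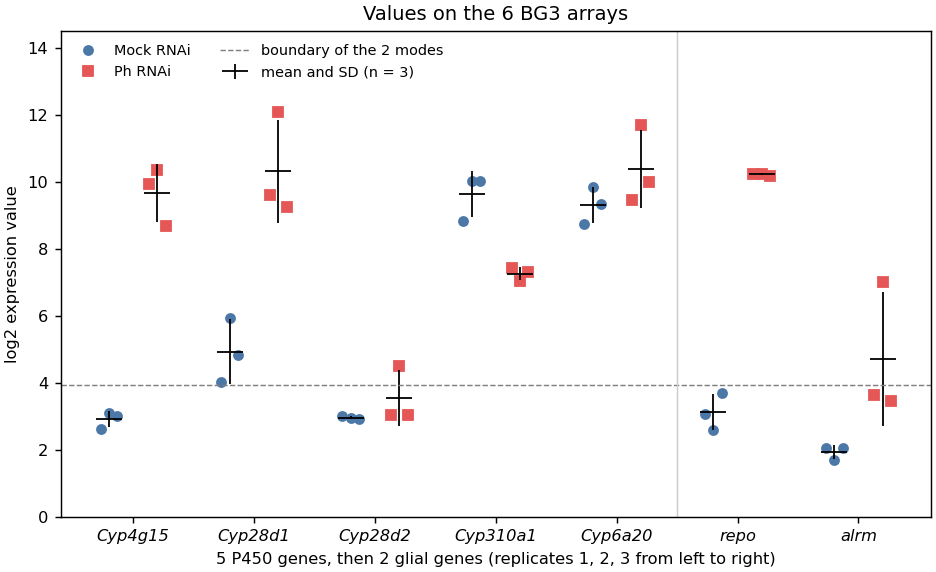
Log2 expression values on the 6 BG3 arrays for 5 P450 genes and for the glial genes *repo* and *alrm*, with 1 point per array and the mean and SD of each group (n = 3). The groups are apart for *Cyp4g15*, *Cyp28d1* and *Cyp310a1*, just apart for *Cyp28d2* and overlap for *Cyp6a20*. Ph RNAi replicate 2 is the highest array for *Cyp4g15*, *Cyp28d1*, *Cyp28d2*, *Cyp6a20* and *alrm*, and not for *Cyp310a1* or *repo*.

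Of the 78 members that were not called, changes ran from -0.76 to 1.08. The highest was that of *Cyp6a20*, known from the fly for its effect on male aggression, with 8.75, 9.85 and 9.33 in Mock RNAi and 9.46, 11.69 and 10.01 in Ph RNAi. Its groups overlapped, and the change of 1.08 ± 0.49 (SE) did not pass the test (adjusted p = 0.303). Without Ph RNAi replicate 2 the change was 0.43. *Cyp12e1*, a mitochondrial P450, gave 8.59, 8.62 and 8.51 in Mock RNAi and 9.10, 9.89 and 8.53 in Ph RNAi (0.60 ± 0.31, SE; adjusted p = 0.371), a change of 0.24 without Ph RNAi replicate 2 and of 0.92 without replicate 3. A further probe set of *Cyp12e1* changed by 1.02 ± 0.38 (SE), also without passing the test (adjusted p = 0.211 over all named probe sets).

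Ph RNAi replicate 2 was the highest of the 3 Ph RNAi arrays for 11 of the 13 P450 genes above the boundary in a BG3 group (84.6%), against 30.1% of all such genes. Mock RNAi replicate 2 was the highest Mock RNAi array for 8 of these 13 (61.5%, against 25.4%). The astrocyte gene *alrm* was also highest on Ph RNAi replicate 2, at 3.64, 7.02 and 3.46. In Mock RNAi it was lowest on replicate 2 (2.06, 1.69 and 2.04). Of the other measured glia markers, *nrv2*, *Gli*, *Gs2* and *gcm2* were highest on Ph RNAi replicate 2 as well. *repo*, *loco*, *moody*, *wrapper*, *gcm* and *Gat* were not, and *moody* was lowest there (10.15, 9.33 and 10.91). The part of *alrm* or of glia in the P450 values was not tested.

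Among members that were not called, the smallest p-values belonged to *Cyp4ac1* (0.62 ± 0.19, SE; adjusted p = 0.116), *Cyp6a22* (-0.76 ± 0.24; 0.125), *Cyp4ac2* (-0.36 ± 0.13; 0.165), *Cyp12d1-d* (0.80 ± 0.31; 0.208) and *Cyp4ac3* (-0.29 ± 0.12; 0.239). None had a mean above the boundary in any group. *Cyp4ac1*, *Cyp4ac2* and *Cyp4ac3* are neighbours on 2L, all at levels of 1.40 to 2.89. Their Ph RNAi and Mock RNAi arrays did not overlap, with the first higher and the others lower in Ph RNAi. Arrays did not overlap for 23.5% of all genes, and these genes were picked by their small p-values. In the lower mode no fall can be read from such values. *Cyp12d1-d*, a gene inducible by caffeine and insecticides, measured 2.74, 2.29 and 2.83 in Mock RNAi and 3.83, 2.68 and 3.76 in Ph RNAi. *Cyp12d1-d* has a near-identical copy beside it, *Cyp12d1-p*, and probes could read both. Leaving out 1 array moved a pair of these genes past the threshold, *Cyp4ac1* without Ph RNAi replicate 1 (0.82, adjusted p = 0.0241) and *Cyp12d1-d* without Ph RNAi replicate 2 (1.18, adjusted p = 0.0219).

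P450 genes of the fly lie partly in tandem arrays. By gene order in RefSeq, with at most 1 other gene between neighbours, 43 of the 81 genes fell into 15 clusters and 38 into none. 33 genes were on 2R, 15 on 3R, 14 on X, 13 on 2L and 6 on 3L. The largest cluster, on 2R, held 9 CYP3 genes in the order *Cyp6a22*, *Cyp6a17*, *Cyp6a23*, *Cyp6a19*, *Cyp6a9*, *Cyp6a20*, *Cyp6a21*, *Cyp6a8* and *Cyp317a1*. Levels within it covered the whole scale: in Mock RNAi 3 genes were above the boundary, at mean percentiles of 91.4 (*Cyp6a17*), 82.8 (*Cyp6a20*) and 54.7 (*Cyp6a23*), whereas *Cyp317a1* was at 11.1. The same number was above in Ph RNAi and only *Cyp6a17* in wing disc. Changes in the cluster ran from -0.76 to 1.08 and 0 of the 9 genes passed the test, beside 3.2% of all genes called higher and 1.57% lower.

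**Figure D4:**
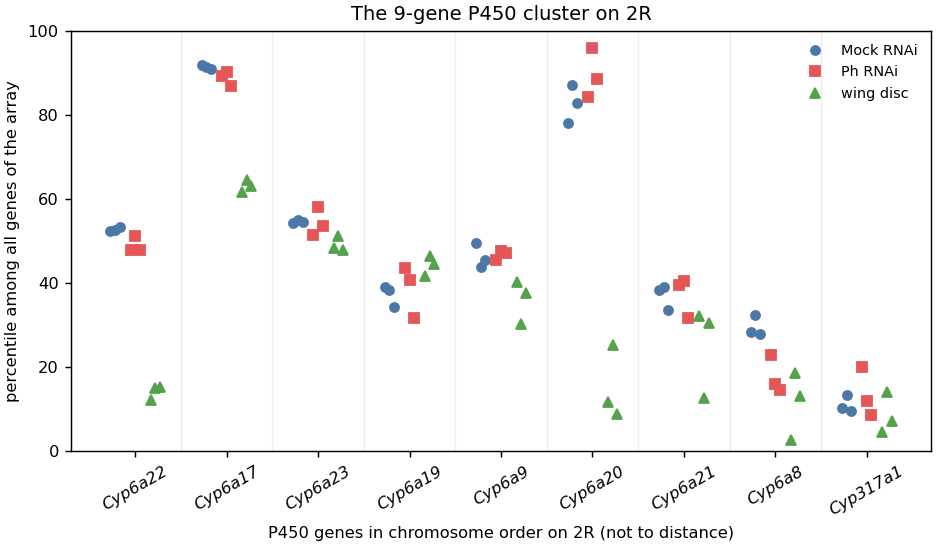
Percentile among all genes of the array for the 9 neighbouring P450 genes on 2R, in chromosome order and not to distance, with 1 point per array. *Cyp6a17* and *Cyp6a20* stand above their neighbours in the BG3 arrays, and in wing disc *Cyp6a20* is among the lower genes while *Cyp6a17* is the highest of the 9.

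The other clusters had at most 3 measured members. Of all 15 clusters, 5 held a member above the boundary in some group, among them *Cyp4ad1*, *Cyp4e2* and *Cyp4e1* on 2R, where only *Cyp4e2* was above it. *Cyp4e2* measured 8.63, 8.94 and 8.63 in Mock RNAi, 8.15, 8.93 and 8.29 in Ph RNAi and 7.85, 8.01 and 8.07 in wing disc (change -0.28 ± 0.26, SE; adjusted p = 0.660). Of all 43 clustered genes, only *Cyp28d1* was called, beside 3.2% of all genes called higher and 1.57% lower.

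Wing disc and BG3 cells were compared by percentile to see which P450 genes differ between the tissue and the cell line. A gene was counted as apart when its 3 wing disc percentiles lay on 1 side of the 3 Mock RNAi ones and the means differed by at least 20 points. Of the 81 genes, 10 were lower in wing disc (12.3%), beside 6.4% of all genes, and 4 were higher (4.94%), beside 7.21%. The tissue, the scale of the array values and the labelled material differ together here and cannot be told apart. With 3 arrays a group the exact permutation test, two-sided, cannot give a p under 0.1, the value for each of these genes.

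Of the 10 that were lower in wing disc, 5 were above the boundary in Mock RNAi. *Cyp6a20* differed most, with a mean percentile of 82.8 in Mock RNAi and 15.3 in wing disc, where its values were 0.44, 0.60 and 0.41. *Cyp12e1* was at 76.6 and 22.4, with wing disc values of 0.52, 0.55 and 0.61. *Cyp6d4* was at 76.2 and 53.3 and *Cyp6a17* at 91.4 and 63.1, both still above the wing disc boundary, and *Cyp28d1* was at 57.0 and 32.9. Thus *Cyp6a20* and *Cyp12e1* were well inside the upper mode in the cell line and in the lower mode in discs.

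The other 5 (*Cyp6a22*, *Cyp4d20*, *Cyp4g15*, *Cyp12d1-d* and *Cyp313a1*) were in the lower mode in Mock RNAi and in wing disc, as were 3 of the 4 that were higher in discs. Within that mode the order of genes rests on small differences in weak signal. *Cyp18a1*, whose enzyme inactivates ecdysteroids, was the exception, with 1.58, 2.20 and 2.00 in Mock RNAi and 2.87, 2.84 and 3.12 in wing disc, a mean of 2.94 at the disc boundary. A further probe set of *Cyp18a1* gave 1.18 in wing disc, in the lower mode. *Cyp301a1*, needed for the adult cuticle, reached 2.05, 2.36 and 2.57, and *Cyp6a14* 1.41, 1.47 and 1.28.

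*Cyp4d1* had 2.89, 0.81 and 0.77 in wing disc, and only replicate 1 was near the boundary. *Cyp6g1* likewise had 1.64, 0.76 and 0.84. Replicate 1 was the array with the most fat body transcript: all 4 measured fat body markers, of 6 in the list, were highest on it and lowest on replicate 3, and their summed log2 level ran from 3.55 to 9.83 across the discs. *Fbp1* stood at 7.42, 3.04 and 0.79. The part of fat body RNA in the values of *Cyp4d1* and *Cyp6g1* was not tested. *Cyp9c1*, at 5.20, 5.06 and 4.84, was a member above the boundary in wing disc and in the lower mode in BG3 cells (2.91, 3.49 and 3.15 in Mock RNAi).

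**Figure D5:**
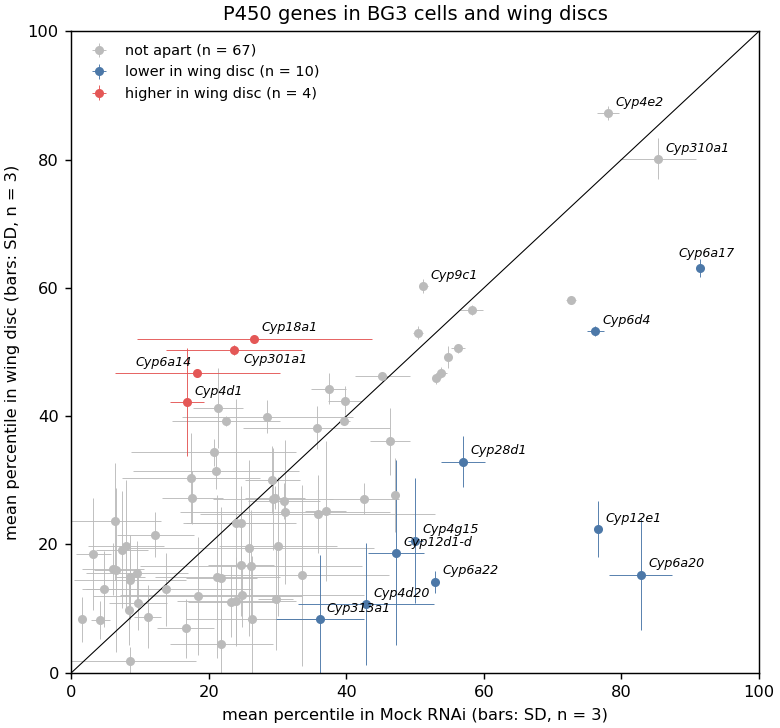
Mean percentile in wing disc against mean percentile in Mock RNAi for the 81 P450 genes (bars show SD, n = 3), with the 10 genes apart and lower in wing disc in blue and the 4 apart and higher in red. *Cyp6a20* and *Cyp12e1* lie far below the diagonal, and the 4 genes in red lie near or below the middle of the scale.

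The P450s of moulting hormone synthesis act in the prothoracic gland, apart from *shd*, whose enzyme makes the active hormone in peripheral tissue. Of the list of 11 genes on ecdysteroid synthesis and inactivation, 10 were measured. Of these 0 were called in either direction, beside 3.2% of all genes called higher and 1.57% lower. *shd* (Cyp314a1) had 4.23, 5.00 and 5.17 in Mock RNAi, 5.24, 5.90 and 4.45 in Ph RNAi and 1.29, 1.62 and 1.46 in wing disc. It was the only steroid P450 above the boundary in BG3 cells, and its groups overlapped (0.39 ± 0.40, SE; adjusted p = 0.697). *dib*, *sad*, *spo* and *spok*, the P450s of the gland, had means of 0.39 to 1.31 in wing disc, 1.47 to 2.49 for Mock RNAi and 1.74 to 2.42 for Ph RNAi, all in the lower mode. *nvd*, the oxygenase that opens the pathway, averaged 3.34 ± 0.82 for Mock RNAi and 3.96 ± 1.00 for Ph RNAi (SD, n = 3 each), on both sides of the boundary, with a change of 0.62 ± 0.50 (SE; adjusted p = 0.606). *sro* and *Eo* were in the lower mode, and the sterol transporter *Npc1a*, which other cells use as well, was at 9.19 ± 0.17 and 9.70 ± 0.35 (0.52, not called). By percentile, 3 of the 10 genes were apart and higher in wing disc than in Mock RNAi, beside 7.21% of all genes. They were *sro* (48.0 against 9.0), *spo* (46.2 against 9.9) and *Cyp18a1* (52.1 against 26.6). *nvd* was apart and lower (25.3 against 51.4), and 6.4% of all genes were. Except for *Cyp18a1* at the disc boundary, these means lay in the lower mode, where the order rests on weak signal. *phm* was not analysed here.

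Measured genes that serve P450s were mostly in the upper mode. None of them was called, beside 3.2% of all genes called higher and 1.57% lower. Among the redox partners 4 of 6 were measured, and cytochrome P450 reductase (*Cpr*) and *dare* were not. *Fdx1* and *Fdx2*, the ferredoxins, were at 8.49 ± 0.13 and 8.39 ± 0.24 in Mock RNAi and at 8.54 ± 0.15 and 8.47 ± 0.50 in Ph RNAi, and cytochrome b5 (*Cyt-b5*) was at 11.62 ± 0.08 and 11.64 ± 0.51 (log2, SD, n = 3 each), with changes of 0.02 to 0.08. *Cyt-b5-r* lay in the lower mode. All 6 measured genes of haem synthesis, of 8 listed, were in the upper mode in each group (*Alas*, *Pbgs*, *Urod*, *Coprox*, *Ppox* and *FeCH*), with changes from -0.32 to 0.35. *Alas*, the first enzyme of that route, was at percentile 63.0 in Mock RNAi and 83.8 in wing disc. The other 5 were lower in mean percentile in wing disc, from *Coprox* (83.7 and 71.7) to *Urod* (90.9 and 90.0). None of these 5 was apart by the rule used for the P450 genes, whereas *Alas* was apart and higher. Only *Urod* overlapped between the groups, but the share of all genes without such overlap was not counted. No lower level of the haem genes in discs is therefore read from these values.

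The 7 regulators of the xenobiotic response were all measured and 0 were called, with changes from -0.04 to 0.17. Lists this short would hold few calls at the shares of all genes (3.2% higher and 1.57% lower). *cnc*, *Keap1*, *maf-S*, *Hr96* and *tgo* were above the boundary in all 3 groups. *ss*, a partner of *tgo* with a role in appendage patterning, had 1.94, 1.69 and 2.09 in Mock RNAi and 6.03, 6.23 and 5.90 in wing disc, and *Hr38* was in the lower mode throughout. Medians of the changes were 0.04, 0.16, -0.07 and -0.03 for redox partners, ecdysteroid genes, haem genes and regulators, beside -0.03 for all genes.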

How the data were processed

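Total RNA (200 ng) was labelled with biotin and hybridised to Affymetrix arrays. The deposited log2 values, 1 per probe set, were produced by the authors with GCRMA according to the processing notes, and its version is not given in the sources used here. Control rows (183) and 1 blank row were left out. Of 18768 probe sets, 13647 had 1 symbol in the platform annotation and gave 11982 genes, with the probe set of highest mean across the 9 arrays standing for a gene. The 81 P450 genes had 83 such probe sets. 2 probe sets that name a P450 gene together with another gene were not used. Chromosome and gene order came from RefSeq (Release 6 plus ISO1 MT).

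For the 6 BG3 arrays the effect of Ph RNAi was fitted in limma (version 3.58.1, R version 4.3.3) by lmFit, then eBayes with a trend. Tests were two-sided, no gene was filtered out, and p-values were adjusted by the Benjamini-Hochberg method over all 11982 genes. The number of arrays limits the precision. The fit was tested on simulated data. Modes were read from a kernel density (bandwidth 0.3). The alternatives were other priors, scaling, probe set choice, a filter on low values, a replicate block and leaving out each array. Samples are called biological replicates, with no word on separate cultures, so a p-value reflects only how these samples vary, which may be partly technical. The members and gene lists were chosen with earlier results of these data known. Genes named are the called members, the glial and steroid genes, the 5 highest of each group, the 5 smallest p-values not called, the 5 largest percentile differences each way and the pathway lists, and others were named after their values were seen. Same-numbered Mock RNAi and Ph RNAi arrays were not treated as pairs. *Cyp6t2Psi*, *Cyp6a15Psi*, *Cyp12d1-p* and *Cyp9f3* had no row of their own.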

Additional observations from a re-analysis of the deposited data

How the results depend on the processing

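The alternatives gave 623 values of 46 named genes under 14 settings. Of these genes 3 were called (*Cyp4g15*, *Cyp28d1* and *Cyp310a1*), and they kept their sign and call throughout. Another 8 values passed the threshold only under an alternative. The called cell type markers, *repo* among them, were not run through the alternatives. With the replicate block, *Cyp12d1-d*, *Cyp4ac1* and *Cyp6a20* (adjusted p = 0.0178) were called as well, which gave 5 P450 genes higher in place of 2. The deviations of same-numbered arrays correlated at 0.161, 0.162 and -0.174, and those of other-numbered arrays at -0.233 to 0.168. These values do not settle whether the numbers pair the samples. Centring each array on its median gave 4 members lower in place of 1, adding *Cyp4ac2*, *Cyp4ac3* and *Cyp6a22*, and a median change of -0.19. That scaling lowers every gene alike. Leaving out 1 array gave 2 to 3 members higher, 1 lower and a median change from -0.02 to 0.015. Over all genes, 188 were called lower. Median centring made this 507. Dropping replicate 2 or 3 of Mock RNAi gave 99 or 88, and dropping Ph RNAi replicate 3 gave 118. With a gap of 10 percentile points, 10 members were higher and 18 lower in wing disc. Leaving out 1 array gave 4 to 6 higher and 10 to 13 lower. Counts above the boundary stayed within 1.5 times of those reported with the boundary 1 log2 unit higher or lower. With the mean of probe sets or with percentiles among all named probe sets, the counts apart were 10 or 11 lower and 5 higher. Weak signal limits what can be said of the 65 genes in the lower mode.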
